A study of Mus musculus with 4 samples.

Results

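Laminin chains and the laminin receptor Bcam were described in 4 RNA-seq libraries of FACS-sorted cells from mouse kidney. The set holds 10 genes of the 52636 gene identifiers counted, namely the alpha chains Lama1 to Lama5, the beta chains Lamb1, Lamb2 and Lamb3, the gamma chain Lamc1, and Bcam. They were chosen by gene symbol within the family when their levels in CPM (counts scaled to library size) in these same libraries were already known, so the differences given for them are a description and no p-value is attached to any single member. All 10 matched 1 identifier each, and all 10 passed the filter on low counts that left 18172 genes for the fit. The samples fall into a control group and a group labelled Brg1-cKO, by common usage a conditional knockout of Brg1 (gene Smarca4), the ATPase of SWI/SNF chromatin remodelling complexes. Each group has 2 libraries, each from 3000 cells. The genotype of the controls, the deleting allele, the sorting marker and the age of the mice are not named in the labels, nor do these state that libraries of a group came from different animals.

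Laminins are secreted heterotrimers of an alpha, a beta and a gamma chain that polymerise into the sheet on which basement membranes are built. The alpha chain carries the globular domains at its end that bind integrins, dystroglycan and Bcam, and Bcam (basal cell adhesion molecule, also called Lutheran) is known as a receptor for the alpha5 chain. In the developing kidney, laminin with the alpha1 chain is known from the first epithelial basement membranes. In the glomerulus, alpha5 with beta2 and gamma1 later makes up the laminin of the filtration barrier, where beta1 comes first. Lama4 is known from vessels and mesenchyme, and Lama2 from muscle and mesenchyme.

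Counts on genes came to 35411905 and 37999342 in the controls and to 14645665 and 10922272 in Brg1-cKO. Smarca4 was at 898 and 937 CPM in the controls and 760.1 and 691 CPM in Brg1-cKO, although counts over the whole gene can include exons outside a deleted part. Uniquely aligned reads outside counted features made up 15.4% to 16.5% in the controls and 49.5% to 57.2% in Brg1-cKO. Reads not aligned were 6.3% and 6.7% against 21.3% and 25.5%, and genes with a count 26486 and 27091 against 16300 and 18038. In log2(CPM + 1) the controls correlated at 0.992 with each other and the Brg1-cKO libraries at 0.826. The latter is lower than any correlation of a Brg1-cKO library with a control (0.872 to 0.878). Xist was at 244 and 217 CPM in the controls and 836 and 1205 CPM in Brg1-cKO, and Ddx3y of the Y chromosome at 76.0 and 78.8 against 1.05 and 3.27 CPM. Both controls thus held the 2 transcripts together, while Brg1-cKO had little Ddx3y. The sex make-up of the cells and the genotype therefore cannot be told apart. The part of these measures in the values that follow was not tested. In such bulk libraries, fewer cells of a type and less RNA per cell cannot be told apart either.

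The promoters of Lama5, Bcam and Lamb1 are shown because, among members with an entry in the table of promoters, these had the clearest separation of Brg1-cKO from control. They come from RefSeq on GRCm38.p6, which shares coordinates with mm10, and are given 5′ to 3′ on the gene's strand as the 250 bases up to the RefSeq start. Capitals mark matches, on either strand, to GGGCGG (the GC box read by Sp1), GCGTGGG (a core within the motif of EGR and WT1 zinc fingers) and CCAAT. The Lama5 window lies at chr2:180225860-180226109 on the minus strand, the Bcam window at chr7:19770533-19770782 on the minus strand and the Lamb1 window at chr12:31265043-31265292 on the plus strand. The GENCODE gene models used for the gene coordinates differ in their starts. By these, the Bcam window lies wholly inside the gene, which reaches to 19771016. The Lamb1 window runs past the GENCODE start at 31265234, and the Lama5 window lies outside its gene.
Lama5: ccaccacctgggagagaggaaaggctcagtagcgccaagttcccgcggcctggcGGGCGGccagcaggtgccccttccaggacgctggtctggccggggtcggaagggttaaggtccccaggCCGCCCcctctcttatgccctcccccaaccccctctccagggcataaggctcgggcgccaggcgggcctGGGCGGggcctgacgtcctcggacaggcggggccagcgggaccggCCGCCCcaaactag
Bcam: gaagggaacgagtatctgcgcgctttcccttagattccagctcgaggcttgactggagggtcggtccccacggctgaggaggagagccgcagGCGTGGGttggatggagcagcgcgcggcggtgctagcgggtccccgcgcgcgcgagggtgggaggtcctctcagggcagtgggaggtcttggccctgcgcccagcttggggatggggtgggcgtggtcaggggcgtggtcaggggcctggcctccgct
Lamb1: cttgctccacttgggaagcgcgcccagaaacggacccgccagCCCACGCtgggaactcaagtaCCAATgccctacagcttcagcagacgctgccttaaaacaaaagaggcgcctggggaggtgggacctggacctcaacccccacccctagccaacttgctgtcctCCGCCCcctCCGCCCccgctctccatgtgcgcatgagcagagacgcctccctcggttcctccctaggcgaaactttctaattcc

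The Lama5 window held 4 GC box matches and neither of the other motifs. The Bcam window held 1 match to GCGTGGG and no other. The Lamb1 window held 2 GC boxes, 1 GCGTGGG on the opposite strand and 1 CCAAT, and no match overlapped another in any of the 3 windows. Of all 32851 promoter windows of this length, 32.7% held GGGCGG, 4.30% GCGTGGG and 33.9% CCAAT. The share of G and C was 72.4% for Lama5, 70.0% for Bcam and 62% for Lamb1, against a median of 52.4% over all windows. The matches are letters in a window and say nothing of a factor bound there.

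Among the alpha chains, Lama5 differed most between the groups in relation to the spread of its libraries. Lama5, the chain of mature epithelial basement membranes, was at 238 and 230.2 CPM in the controls and at 602 and 521 CPM in Brg1-cKO. Both Brg1-cKO libraries lay above both controls, with a gap between the groups wider than the range within either. The log2 fold change of Brg1-cKO over control was 1.26 (SE 0.12 from the edgeR fit over all genes, n = 2 per group), or 2.40-fold. Lama1, the alpha chain of early epithelia, did not follow Lama5. Lama1 was at 272 and 271 CPM in the controls, 217 CPM in Brg1-cKO replicate 1 and 307 CPM in replicate 2. The Brg1-cKO libraries thus lay on either side of the controls. The log2 fold change was -0.05 (SE 0.21), and it was 0.15 without Brg1-cKO replicate 1 and -0.35 without replicate 2.

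Lama4, the alpha chain of vessels, was at 269.8 and 271 CPM in the controls and at 346 and 284 CPM in Brg1-cKO. Both Brg1-cKO libraries were above the controls, by a log2 fold change of 0.22 (SE 0.14), which was 0.04 without Brg1-cKO replicate 1 and 0.33 without replicate 2. Lama2, the alpha chain of muscle, was at 42.3 and 41.9 CPM in the controls, 78.3 CPM in Brg1-cKO replicate 1 and 18.9 CPM in replicate 2. The 2 Brg1-cKO libraries therefore differed 4.15-fold from each other, with both controls between them. Its log2 fold change of 0.21 (SE 0.74) became -1.19 without replicate 1 and 0.88 without replicate 2. Lama3, the alpha chain of laminin-332 in skin and urothelium, had 80 and 90 counts in the controls and 46 and 9 in Brg1-cKO, or 2.24, 2.33, 3.21 and 0.841 CPM. In Brg1-cKO replicate 2 it was near the lower end of what that library detects, where 3 counts correspond to 0.280 CPM (0.0778 to 0.280 CPM over all libraries). Lama2 and Lama3 share 631 and 197 exon bases with predicted genes on the opposite strand (Gm48084 and Gm29200), and whether the authors counted by strand is not stated.

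**Figure D1:**
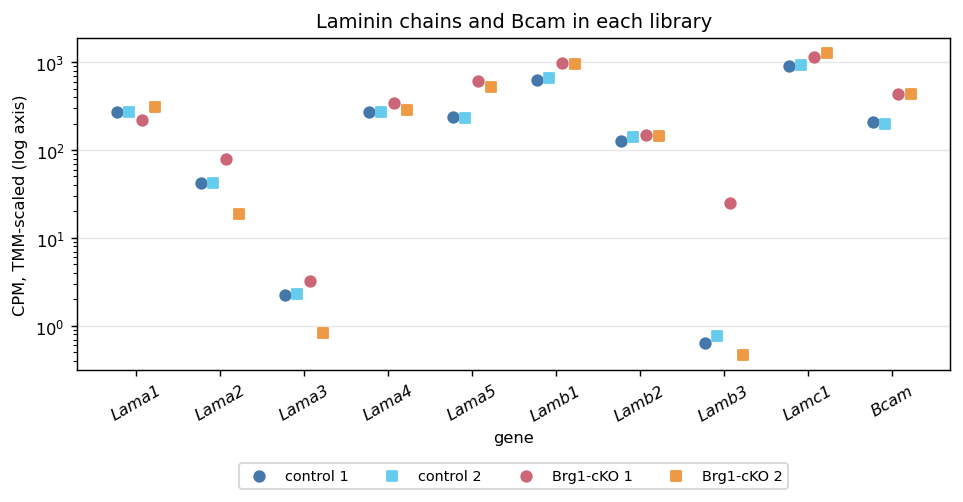
CPM (log axis) of each of the 10 genes in the 4 libraries, with 1 point per library, circles for replicate 1 and squares for replicate 2. Lama5 and Bcam show 2 tight pairs of points set apart, at 230.2 to 238 against 521 to 602 CPM for Lama5, while Lama2, Lama3 and Lamb3 have their Brg1-cKO points far from each other.

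Of the beta chains, Lamb1 and not Lamb2 was the one set apart between groups. Lamb1, the beta chain of most embryonic laminins, was at 629 and 655 CPM in the controls and at 975 and 959 CPM in Brg1-cKO. The groups did not overlap, and the log2 fold change was 0.59 (SE 0.08). Lamb2, the beta chain of the mature glomerular filter, was at 128 and 140.1 CPM in the controls and at 149 and 143 CPM in Brg1-cKO. Both Brg1-cKO values were above both controls, but their distance to the higher control was smaller than the distance between the controls, and the log2 fold change was 0.12 (SE 0.15). Lamb3, the beta chain of laminin-332, had 23 and 30 counts in the controls, 357 in Brg1-cKO replicate 1 and 5 in replicate 2. Its level of 24.9 CPM in replicate 1 against 0.467 CPM in replicate 2 is a 53.4-fold distance within a group, so its log2 fold change of 4.15 (SE 2.13) rests on 1 library and was -0.63 without it. In that library Lama3 was at 3.21 CPM, against 2.24 to 2.33 CPM in the controls.

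Lamc1, the gamma chain shared by nearly all laminins of the kidney, had the highest level per kb of merged exons of the members in both groups. It was at 900.3 and 919 CPM in the controls and at 1127 and 1258 CPM in Brg1-cKO. Both Brg1-cKO libraries were above both controls, with a log2 fold change of 0.39 (SE 0.09). Bcam was at 209 and 198 CPM in the controls and at 431 and 429 CPM in Brg1-cKO. The libraries of each group lay within a factor of 1.05 (controls) and 1.01 (Brg1-cKO) of each other, and the log2 fold change was 1.08 (SE 0.10), or 2.11-fold. Bcam shares 52 exon bases with the antisense gene Gm26600.

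On the level per length (CPM per kb of merged exons), the order in the controls was Lamc1, Lamb1, Bcam, Lama1, Lama4, Lamb2, Lama5, Lama2, Lama3 and Lamb3. The pairs Lamb1 and Bcam, and Lama4 and Lamb2, had overlapping ranges. Lama5 was in place 7 in the controls at 20.6 ± 0.510 CPM per kb and in place 4 in Brg1-cKO at 49.3 ± 5.06 CPM per kb (SD, n = 2). Bcam went from 63.6 ± 2.30 to 134 ± 0.570 CPM per kb and took place 2 in Brg1-cKO, behind Lamc1 at 144 ± 11.2 CPM per kb. In Brg1-cKO the ranges of Lama1, Lama4 and Lamb2 overlapped in turn, as did those of Lama2, Lamb3 and Lama3. The order depends on the length used: per kb of the longest transcript, Brg1-cKO means were 177 for Bcam, 167 for Lamb1 and 156 for Lamc1, and control means 83.8, 111 and 119.

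Dividing each alpha or beta chain by the total of its class within a library gives a measure that does not depend on scaling between libraries. Lama5 made up 28.2% and 27.5% of alpha chain reads per kb in the controls and 48.5% and 44.8% in Brg1-cKO. Lama1 made up 37.8% and 38.2% in the controls, 20.5% in Brg1-cKO replicate 1 and 31.0% in replicate 2. Lama4 made up 30.2% and 30.6% in the controls and 26.3% and 23.0% in Brg1-cKO. In each of these 3 chains the groups did not overlap. Per kb of merged exons, Lama5 was the highest alpha chain in both Brg1-cKO libraries and Lama1 in both controls. This order depends on the length used. Per kb of the longest transcript, Lama4 was the highest in every library, at 45.2% and 45.7% in the controls and 40.5% and 37.0% in Brg1-cKO.

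The sum of the 4 alpha chains other than Lama5 was 53.2 and 53.3 CPM per kb in the controls and 56.1 and 56.4 CPM per kb in Brg1-cKO. The sum of all 5 was 74.2 and 73.5 against 109 and 102 CPM per kb. Most of the distance between the groups in total alpha chain level therefore lay in Lama5. The ratio of Lama5 to Lama1 per kb was 0.746 and 0.721 in the controls and 2.36 and 1.44 in Brg1-cKO. Against Lama4 the ratio was 0.936 and 0.900 in the controls and 1.85 and 1.95 in Brg1-cKO. With the length of the longest transcript in place of merged exons, Lama5 to Lama4 was 0.469 and 0.451 in the controls and 0.925 and 0.975 in Brg1-cKO, so Lama4 was then the higher of the pair in all 4 libraries.

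Among the beta chains, Lamb2 made up 24.8% and 25.8% in the controls and 19.4% and 19.5% in Brg1-cKO. Lamb1 made up 75.1% and 74.1% against 77.7% and 80.4%, and Lamb3 2.98% in Brg1-cKO replicate 1 and 0.0588% to 0.132% elsewhere. The lower share of Lamb2 is one of composition, since its own level in CPM was above both controls in both Brg1-cKO libraries. For the plain share of reads, the widest 95% Wilson interval of these chains in any library spanned 1.78 percentage points, which covers counting error only.

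**Figure D2:**
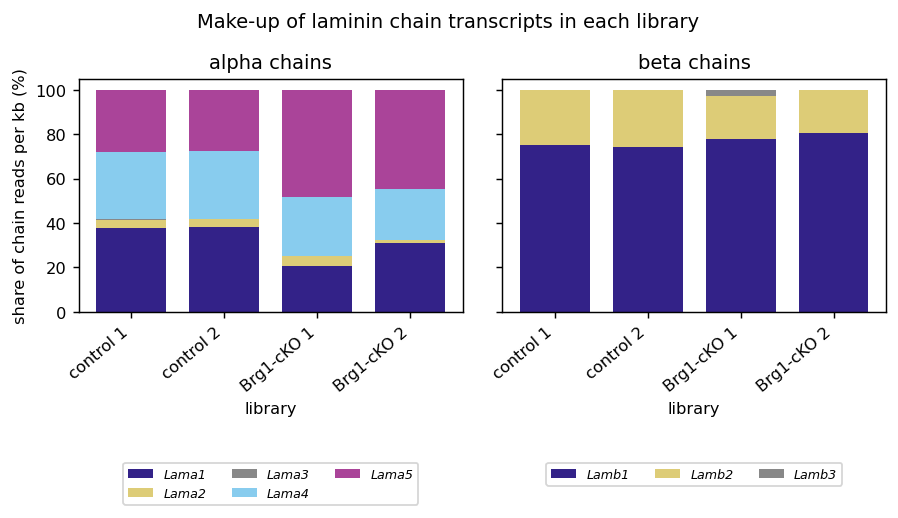
Share (%) of each chain in the reads per kb of its class, with 1 bar per library and 1 panel each for alpha and beta chains. Lama5 takes 27.5% to 28.2% of the alpha bar in the controls and 44.8% to 48.5% in Brg1-cKO, and Lamb2 takes less of the beta bar in Brg1-cKO.

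With edgeR (quasi-likelihood, Benjamini-Hochberg adjustment at 0.05), 0 of the 10 members passed, where 0% of the 18172 genes did so. At an unadjusted p under 0.05, 4 members were above control, against 5.44% of all genes. With DESeq2, 4 passed as higher, where 3.99% of the 16058 genes with an adjusted p did. Both Brg1-cKO libraries were above both controls in 6 members, against 17.5% of all genes, and below both in 0 members, against 34.5%. The median log2 fold change was 0.31 over the members and -0.06 over all genes tested. The members were proposed with this contrast known, so these counts only describe them.

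The other genes through which laminins act were taken from lists of receptors, enzymes that glycosylate dystroglycan, basement membrane partners and further family members, 39 genes in all. The choice of members did not use them. The lists were also drawn up with earlier results of these data known, so their counts are no independent support. Of the 39 genes, 0 passed in edgeR's quasi-likelihood test over all genes. At an unadjusted p under 0.05 there were 7 above and 2 below control, against 5.44% and 12.9% of all genes. With DESeq2, 6 passed as higher and 2 as lower, against 3.99% and 2.07% of all genes. The 8 that passed with DESeq2 were Itga3, Itga7, Dag1, Agrn, Col4a3 and Col4a4 above control, and Itga2 and Hspg2 below. In edgeR, 27 partners passed without Brg1-cKO replicate 1 and 29 without replicate 2. There the spread comes from the controls alone and 55.5% and 60.6% of all genes passed, so these counts say little of the partners.

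Among the 12 receptors, Itga3, which pairs with beta1 integrin into the main receptor of podocytes for alpha5 laminins, was at 92.9 and 96.6 CPM in the controls and at 225 and 297 CPM in Brg1-cKO. The log2 fold change was 1.46 (SE 0.19), with an adjusted p of 0.166 in edgeR and 2.50e-07 in DESeq2. Dag1, the dystroglycan precursor, was at 335 and 338 CPM against 507 and 599 CPM, or 0.72 in log2 (SE 0.12, adjusted p = 0.166 in edgeR and 1.17e-04 in DESeq2). Itga7, an integrin chain best known from muscle, was at 1.51 and 1.30 CPM against 16.8 and 20.8 CPM, or 3.74 in log2 (SE 0.79, adjusted p = 0.166 in edgeR and 1.30e-04 in DESeq2). In these 3 genes the groups did not overlap. Itgb1, the common beta chain, was below control in both Brg1-cKO libraries, at 387 and 477 CPM against 546 and 532 CPM, or -0.32 in log2 (SE 0.14, adjusted p = 0.354 in edgeR and 0.455 in DESeq2). Itga6, the chain of another laminin receptor, was at 188 and 124 CPM in Brg1-cKO, on either side of the controls at 150.2 and 141 CPM (edgeR adjusted p = 0.898). Itga2, a collagen and laminin receptor, was at 15.8 and 15.2 CPM in the controls and at 0 and 0.560 CPM in Brg1-cKO (edgeR adjusted p = 0.270, DESeq2 0.00711).

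Among the 11 basement membrane partners, Agrn, the proteoglycan agrin that joins laminin to dystroglycan, was at 539 and 544 CPM in the controls and at 799.9 and 832 CPM in Brg1-cKO. This is 0.59 in log2 (SE 0.08, adjusted p = 0.166 in edgeR and 9.42e-07 in DESeq2). Hspg2, the proteoglycan perlecan, was at 931 and 960.0 CPM against 694 and 564 CPM, or -0.59 in log2 (SE 0.13, adjusted p = 0.166 in edgeR and 0.0109 in DESeq2). The 2 proteoglycans thus lay on opposite sides of control, with no overlap between groups. Col4a4, a collagen chain of the mature glomerular membrane, was at 6.06 and 5.47 CPM against 65.97 and 32.6 CPM, or 3.09 in log2 (SE 0.53, adjusted p = 0.166 in edgeR and 3.08e-05 in DESeq2). Nid1, which links laminin to collagen IV, was at 270.4 and 253 CPM against 182 and 238 CPM (log2 fold change -0.32, SE 0.18, edgeR adjusted p = 0.484, DESeq2 0.642).

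Lamc3, a gamma chain outside the set, was at 30.8 and 34.3 CPM in the controls and 36.9 and 50.2 CPM in Brg1-cKO, or 0.42 in log2 (SE 0.32, adjusted p = 0.607 in edgeR). Of the 13 enzymes that build the laminin-binding sugar on dystroglycan, 10 overlapped between the groups, against 48% of all genes, and the median log2 fold change was 0.24. Pomt1, which starts that sugar chain, had the smallest p of them, at 39.1 and 40.7 CPM against 63.2 and 93.5 CPM (edgeR adjusted p = 0.210, DESeq2 0.113). Pomt2 went the other way, at 42.5 and 39.9 CPM in the controls against 29.0 and 20.6 CPM in Brg1-cKO. Its log2 fold change was -0.73 (SE 0.34, adjusted p = 0.392 in edgeR and 0.534 in DESeq2). Col4a3, Itga2, Pomt1 and Pomt2 are given here because of their values and not by the rule for named genes.

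**Figure D3:**
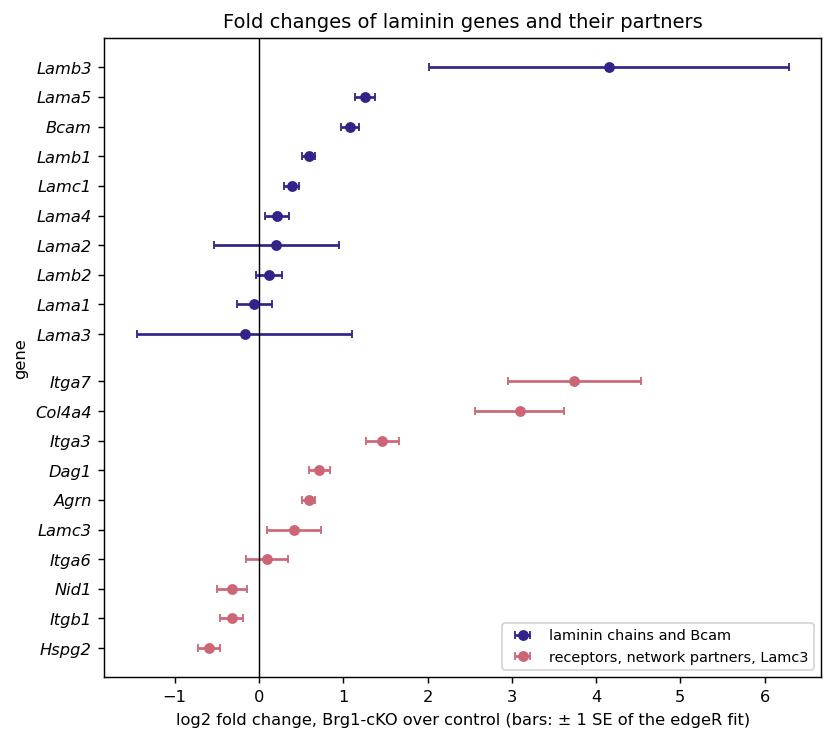
Log2 fold change of Brg1-cKO over control with ± 1 SE of the edgeR fit, for the 10 members (upper block) and the named partners (lower block). Lama5 (1.26) and Bcam (1.08) have narrow bars far from 0, Lamb3 has the widest bar, and among partners Itga3, Dag1 and Agrn are above 0 and Hspg2 below it.

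The genes whose centred log2(CPM + 1) over the 4 libraries came nearest to a member were found by root mean square distance among 9851 named genes at 10 CPM or more. For Bcam these were Tspan13 (0.0083), Mical3 (0.0200) and Abcf3 (0.0263), and Lama5 was in place 71 with a distance of 0.114. For Lamb1 these were Cdh6 (0.0138), the cadherin of early nephron epithelium, Phactr4 (0.0282) and Jag1 (0.0286), and Lamc1 was in place 272 with 0.120. For Lama1 these were Cad (0.0063), an enzyme of pyrimidine synthesis, Fam208b (0.0096) and Nup205 (0.0135), a nuclear pore protein. Bcam and Lama5 were far from Lama1, with distances of 0.603 and 0.710. With 4 libraries many genes share a profile, and nearness says nothing of shared control.

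Markers of the cell types that the sort could hold moved between the groups as well. Summed over 12 podocyte genes, the level was 1220 and 1261 CPM in the controls and 3625 and 3429 CPM in Brg1-cKO. All 12 were above control in log2 fold change, against 8546 of the 18172 genes tested. In 10 of them both Brg1-cKO libraries lay above both controls, against 17.5% of all genes. Nphs1 of the slit diaphragm was at 21.8 and 22.1 CPM in the controls and at 152 and 198 CPM in Brg1-cKO. Summed over 10 genes of the early nephron, the level was 1370 and 1360 against 2425 and 2245 CPM, with 8 above control in log2 fold change. Wnt4 was at 202 to 206 against 370.3 to 470.1 CPM and Lhx1 at 135 to 137 against 190.4 to 385 CPM. Of those above, Dkk1 and Bmp2 overlapped between the groups. The 2 below were Fgf8, at 24.7 and 24.3 against 7.55 and 15.1 CPM, and Dll1, at 44.4 and 48.3 against 34.9 and 38.8 CPM. Lama5 and Bcam stood above control in the same libraries as both lists, and the part of these cells in the Lama5 and Bcam values was not tested.

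Other lists stood below control. Over all genes tested, 9626 of 18172 had a log2 fold change below 0. The sum of 10 endothelial genes was 722 and 733 CPM in the controls and 394 and 257 CPM in Brg1-cKO, with 10 of 10 below. In 8 of them both Brg1-cKO libraries lay below both controls, against 34.5% of all genes, while Plvap and Esam overlapped. Lama4, known from vessels, had a log2 fold change of 0.22 (SE 0.14), or 0.04 without Brg1-cKO replicate 1. The part of endothelial cells in the Lama4 values was not tested. Of 12 stromal genes 11 were below, with sums of 3560 and 3512 against 2198 and 2005 CPM. Of 10 tested ureteric bud genes 9 were below, with sums of 294 and 302 against 207 and 111 CPM. Calb1, Wnt9b and Wnt7b had counts in both controls and 0 in Brg1-cKO, while Upk3a had 0 in all 4 libraries. Hoxb7 went the other way. Its 98.2 CPM in Brg1-cKO replicate 1 was the largest part of that library's sum, with 27.0 CPM in replicate 2 (controls 23.5 and 29.4 CPM). In 8 of the tested genes both Brg1-cKO libraries lay below both controls, while Hoxb7 and Gata3 overlapped. For immune genes 9 of 10 were below, with sums of 182 and 183 against 93.2 and 99.9 CPM and C1qa at 0 in Brg1-cKO. The gene above control was Adgre1, absent from Brg1-cKO replicate 1 and at 29.9 CPM in replicate 2 (controls 6.37 and 9.21 CPM). In 7 of the genes both Brg1-cKO libraries lay below both controls, while Adgre1, Tyrobp and Laptm5 overlapped. Csf1r was at 25.6 CPM in Brg1-cKO replicate 1 and 0 in replicate 2. The close sums thus hide differences between these libraries.

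The nephron progenitor list was near control, at 1280 and 1259 against 1386 and 1329 CPM, with 6 genes above and 4 below. Six2, its defining transcription factor, was at 242 and 237 CPM in the controls and at 234 and 126 CPM in Brg1-cKO, below both controls in both. Cited1 was at 43.0 and 5.98 CPM in Brg1-cKO, on either side of the controls at 19.9 and 17.2 CPM. Over the list, both Brg1-cKO libraries lay above both controls in 3 genes, against 17.5% of all genes. They lay below both in 2 genes, against 34.5%. Tubule genes summed to 208 and 197 against 269 and 356 CPM, with 5 of 8 tested genes above, Slc34a1 of the proximal tubule at 2.79 and 2.98 against 24.7 and 45.2 CPM and Umod, Slc3a1 and Kap at 0 in Brg1-cKO (Kap also in the controls). The smooth muscle and mesangium list summed to 329 and 335 against 378 and 288 CPM, above the controls in Brg1-cKO replicate 1 and below in replicate 2. Its genes were split, with 4 above and 4 below control in log2 fold change. Itga8, also in the nephron progenitor list, was the largest part, at 159 and 150 CPM in Brg1-cKO. Cnn1 was at 23.7 CPM in Brg1-cKO replicate 1 and 0.0934 CPM in replicate 2, against 0.391 and 0.519 CPM in the controls. Myh11 of this list, a smooth muscle myosin, was at 0 and 0.374 CPM in Brg1-cKO and 5.56 and 3.89 CPM in the controls, and Ren1 of renin cells at 0 in Brg1-cKO. Of 8 erythroid genes, Hba-a1 and Hba-a2 were at 0 in all libraries, and the list summed to 0.503 and 1.32 against 29.6 and 0.934 CPM. The 29.6 CPM of Brg1-cKO replicate 1 was Slc4a1 alone, with 424 counts there and 0 in replicate 2.

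**Figure D4:**
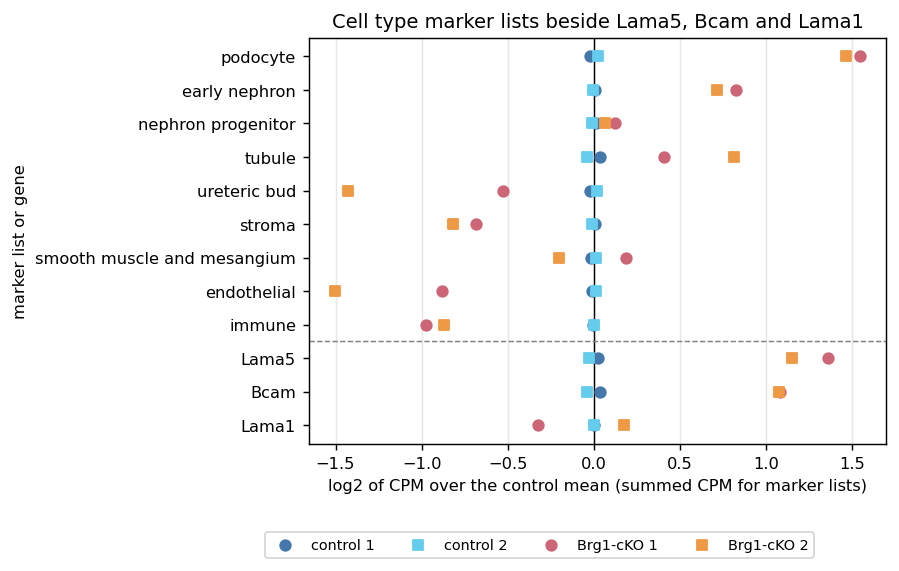
Log2 of the level over the control mean for the summed CPM of 9 marker lists (above the dashed line) and for Lama5, Bcam and Lama1 (below it), with 1 point per library. In Brg1-cKO the podocyte and early nephron lists, Lama5 and Bcam lie to the right of the controls, the ureteric bud, stromal, endothelial and immune lists lie to the left, and Lama1 has 1 point on each side.

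On mm10, with GENCODE annotation, all members are protein-coding. Lama5 lies on chromosome 2 from 180176373 to 180225859 (minus strand), Bcam on chromosome 7 from 19756131 to 19771016 (minus), Lamb1 on chromosome 12 from 31265234 to 31329644 (plus) and Lama1 on chromosome 17 from 67697259 to 67822647 (plus). Lamb2 lies on chromosome 9 from 108479736 to 108490530 (plus), and Lamb3 and Lamc1 on chromosome 1 from 193207699 to 193343878 (plus) and from 153218922 to 153332786 (minus). Lama2 and Lama4 are both on chromosome 10, from 26980036 to 27619758 (minus) and from 38965515 to 39110188 (plus), and Lama3 is on chromosome 18 from 12333819 to 12583013 (plus).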

How the data were processed

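The deposited counts are whole-number reads per Ensembl gene and library, made by the authors. Per the labels' protocols, mRNA from 3000 sorted cells went into strand-specific, randomly primed libraries read as single ends of 75 bp. Per the submitters' processing notes, mm10, TopHat and DESeq2 were used. How reads were assigned to genes, by strand or not, and against which annotation is not given in the sources used here. Reads given to no gene (31.8% to 32.4% of reads in control, 65.5% and 72.1% in Brg1-cKO) were left out. If strand was ignored, antisense reads add to a gene.

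Symbols and lengths came from GENCODE M21 (52403 of 52636 identifiers matched a symbol). All genes were fitted together with edgeR 4.0.16 in R 4.3.3 (group only, TMM scaling, default expression filter with a minimum count of 10, robust quasi-likelihood F test, Benjamini-Hochberg adjustment at 0.05). The functions were tested on simulated counts with equal spread in both groups, which does not cover the unequal spread of these libraries. CPM use TMM-scaled library sizes, and SE is the log2 fold change over the root of F. With 2 libraries per group and no statement on animals, p-values cover the variation of these libraries alone, possibly technical. Levels per length use merged exons. Intervals and floors (3 counts) cover counting error only.

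The members, lists and alternatives were chosen with earlier results of these data known. Named partners are those past the threshold, or, with fewer than 5, the 6 with the smallest p at 10 CPM or more, plus Dag1, Itga3, Itga6, Itgb1, Nid1 and Lamc3. Some genes of the lists are not reported here by name. Likeness was computed for Bcam, Lama1 and Lamb1, with the 3 nearest genes named. Alternatives were DESeq2 1.42.0, other scalings and filters, each library left out, a replicate block and another length.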

Additional observations from a re-analysis of the deposited data

How the results depend on the processing

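The count of genes past an adjusted p of 0.05 was 0 in edgeR under RLE factors, total counts, no filter and 10 CPM in 2 libraries, for all genes and for the 39 partners. It was 974 (8 partners) with DESeq2 and 2021 (9 partners) with DESeq2 on all genes with a count, a setting chosen after seeing the data. Leaving out 1 library gave 16 to 13262 genes and 0 to 29 partners. The large counts, 12315 and 13262 (27 and 29 partners), came without Brg1-cKO replicate 1 and 2, where the library left was assumed to vary like the controls. Control replicates 1 and 2, left out, gave 16 each. A fit with the replicate block gave 156 genes and 2 partners. Deviations of same-numbered libraries correlated at -0.016 over genes, so the numbers were not taken as pairs. The cause of these differences was not tested. Over the alternatives, the log2 fold change ranged from 1.13 to 1.34 for Lama5, 1.01 to 1.13 for Bcam, 0.53 to 0.65 for Lamb1, 0.29 to 0.45 for Lamc1, 0.04 to 0.33 for Lama4 and 0.02 to 0.18 for Lamb2, above 0 in all 11. It took both signs for Lama1 (-0.35 to 0.15), Lama2 (-1.19 to 0.88), Lama3 (-1.47 to 0.47) and Lamb3 (-0.63 to 5.10). The difference in chain share kept its sign in 8 of 8 alpha and beta chains with the longest transcript and with no division by length. For Lama5 it was 18.8 percentage points, and 15.8 and 18.7 under these. Lama3 and Lamb3 had 9 and 5 counts in Brg1-cKO replicate 2. Their levels differed 3.82-fold and 53.4-fold between the Brg1-cKO libraries, which limits what can be said of both genes.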
